A study of Mus musculus with 8 samples.

Results

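10 genes of bile acid synthesis and its control were followed in the livers of mice recovering from ethanol feeding and carbon tetrachloride (CCl4), a toxin that kills the hepatocytes around the central vein. They are Cyp7a1, Cyp8b1, Cyp27a1, Cyp7b1, Hsd3b7, Baat, Slc27a5, Amacr, Nr0b2 and Nr1h4, chosen as the rows of the deposited count table that carry these symbols, 10 of 22155. All 10 had reads in every library, and all 10 passed the filter on low counts, which kept 13999 genes. The study compared livers that by label lack hepatocyte Yap1, a transcriptional coactivator of the Hippo pathway, with their own controls. It also compared livers of Ctgf conditional knockouts, which by label lack a secreted matrix-associated protein, with theirs. The 8 libraries form 4 groups of 2.

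The Yap1 knockout (KO) mice received the virus AAV8-iCre, which by label removes Yap1 from hepatocytes, and the Yap controls were Yap1 floxed homozygotes given AAV8-GFP. The Ctgf KO mice carried a conditional deletion of Ctgf, and the Ctgf controls were Ctgf floxed homozygotes, for which the labels name no virus. Not given in the sources used here are the promoter in the iCre virus and the Cre driver of the Ctgf deletion. By label the background was C57BL/6 and the mice were 8 to 10 weeks old, while the design text gives 8 weeks. All 4 groups shared the injury: liquid diet with 1% ethanol for 2 days and then 2% for 10 days, and a single CCl4 injection of 1 µl per g, with the liver collected 2 days later. No uninjured liver was analysed here. The labels carry a different number for each library but do not say whether replicates are separate mice. The p-values therefore cover only the variation among these libraries, which may be technical.

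Bile acids are made from cholesterol in hepatocytes by a classical route, which Cyp7a1 opens, and an alternative route, which begins with side-chain hydroxylation by Cyp27a1. The products activate the nuclear receptor FXR, encoded by Nr1h4, and FXR induces Nr0b2, whose product SHP represses Cyp7a1 and Cyp8b1 as part of a negative feedback loop. In the intestine FXR also induces Fgf15, a hormone that acts on the liver through the receptor Fgfr4 and its partner Klb.

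Total counts ran from 26904021 to 33488609 per library. The first principal component (49.2% of the variance) put the Yap line on one side and the Ctgf line on the other, so values are compared mainly within a line. Yap control 2 stood apart on the second component. Its exocrine pancreas markers took 1.07% of all counts, against 0.00033% to 0.000716% in the other 7 libraries. Yap1 itself stood at 31.0 and 32.5 CPM (reads scaled to a common library size) in Yap1 KO livers and at 107 and 76.1 CPM in Yap controls. Ctgf stood at 8.02 CPM in Ctgf KO 1 and at 49.2 CPM in the library labelled Ctgf KO 2, against 28.8 and 32.1 CPM in Ctgf controls. The Ctgf RNA level of the second library thus goes against its label, though counts per gene do not show whether the allele was deleted. In the Yap line Ctgf stood at 406 and 324 CPM in Yap1 KO livers, against 96.8 and 50.1 CPM in Yap controls. All 10 hepatocyte markers were detected in every library, with Alb (albumin) between 29930 and 69270 CPM.

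RefSeq promoter sequences (GRCm38.p6) were at hand for 5 of the 10 genes. The 250 bases upstream of the annotated start are printed for 3 of them, to show the feedback loop's receptor Nr1h4, its known target Nr0b2, and Cyp8b1, a gene that SHP represses. Capitals mark TCAAGG (the core bound by NR5A2) in Nr0b2, CAAAGTC (part of a sequence bound by HNF4) in Cyp8b1, and the nuclear receptor hexamer AGGTCA, on the other strand, in Nr1h4.
Nr0b2: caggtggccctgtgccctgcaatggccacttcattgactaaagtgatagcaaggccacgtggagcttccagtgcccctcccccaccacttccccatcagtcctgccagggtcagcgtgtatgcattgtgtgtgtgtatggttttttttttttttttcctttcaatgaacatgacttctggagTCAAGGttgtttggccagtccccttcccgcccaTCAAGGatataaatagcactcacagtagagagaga
Cyp8b1: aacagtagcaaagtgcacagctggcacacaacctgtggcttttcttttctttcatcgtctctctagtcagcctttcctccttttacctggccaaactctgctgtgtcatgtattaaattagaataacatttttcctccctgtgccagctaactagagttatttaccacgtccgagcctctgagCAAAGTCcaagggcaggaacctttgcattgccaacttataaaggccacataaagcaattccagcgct
Nr1h4: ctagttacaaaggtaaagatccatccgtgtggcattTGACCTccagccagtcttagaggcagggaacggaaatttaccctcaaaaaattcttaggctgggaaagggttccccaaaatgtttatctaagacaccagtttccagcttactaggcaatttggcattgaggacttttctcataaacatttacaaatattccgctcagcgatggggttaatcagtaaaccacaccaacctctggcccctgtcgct

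The Nr0b2 window is chr4:133553126-133553375 on the plus strand, the Cyp8b1 window chr9:121916306-121916555 on the minus strand and the Nr1h4 window chr10:89506659-89506908 on the minus strand. The first 2 lie outside the annotated genes of GENCODE, and the Nr1h4 window lies inside an intron of Nr1h4 itself, upstream of an internal start. Both strands were searched. TCAAGG occurred at positions -68 to -63 and -35 to -30 of Nr0b2, counted from the base before the start as -1, and is present in 12.5% of the 32851 windows of this length in the table. CAAAGTC occurred at -67 to -61 of Cyp8b1 and is present in 3.84% of windows. AGGTCA occurred at -214 to -209 of Nr1h4 and is present in 14% of windows. GGAATG, the core of the TEAD sites through which YAP acts, was found in the Hsd3b7 window alone of the 5, at -16 to -11, and is present in 12.6% of windows. The Hsd3b7 window overlaps exons of 9430064I24Rik, on the opposite strand, and of Hsd3b7 itself. No motif overlapped another here, and each match is only a description of the letters. The motifs were chosen after the sequences and values had been seen.

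The genes are protein-coding and are placed here on GRCm38 by GENCODE, among them Nr1h4 at chr10:89454234-89533585 and Cyp7a1 at chr4:6265612-6275633, both on the minus strand. Among themselves the 10 genes spanned a wide range of levels, compared here as CPM per kilobase of exon. Slc27a5, the bile acyl-CoA synthetase, averaged 88.1 CPM per kb over the 8 libraries (range 42.7 to 144), and Cyp27a1, the mitochondrial sterol hydroxylase, 72.2 (49.1 to 110). Baat, which joins bile acids to taurine, averaged 36.5, Nr1h4 33.8, Cyp7b1, the oxysterol hydroxylase of the alternative route, 33.3, and Amacr, a racemase that prepares the side chain for shortening in peroxisomes, 23.4 CPM per kb. Nr0b2 averaged 12, Cyp8b1, whose product is needed for cholic acid, 4.05, and Hsd3b7, a steroid dehydrogenase acting early in both routes, 3.6 CPM per kb. Cyp7a1, the rate-limiting enzyme of the classical route, was last at 0.311 CPM per kb (0.00663 to 1.26). Ranges of neighbours in this order overlapped, except for Hsd3b7 and Cyp7a1, the last pair. Baat, Nr1h4 and Cyp7b1 could not be placed in order, with Baat above Nr1h4 in 5 of 8 libraries and Nr1h4 above Cyp7b1 in 4 of 8. Nor could Cyp8b1 and Hsd3b7, since Cyp8b1 was the higher in 2 of 8 libraries and its mean rests on a high value in Ctgf KO 1, 13.4 CPM per kb. The exons of Hsd3b7 overlap 9430064I24Rik on the opposite strand and Gm49388 on the same strand, and the strand setting of the counting is not known, so its counts are uncertain.

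**Figure D1:**
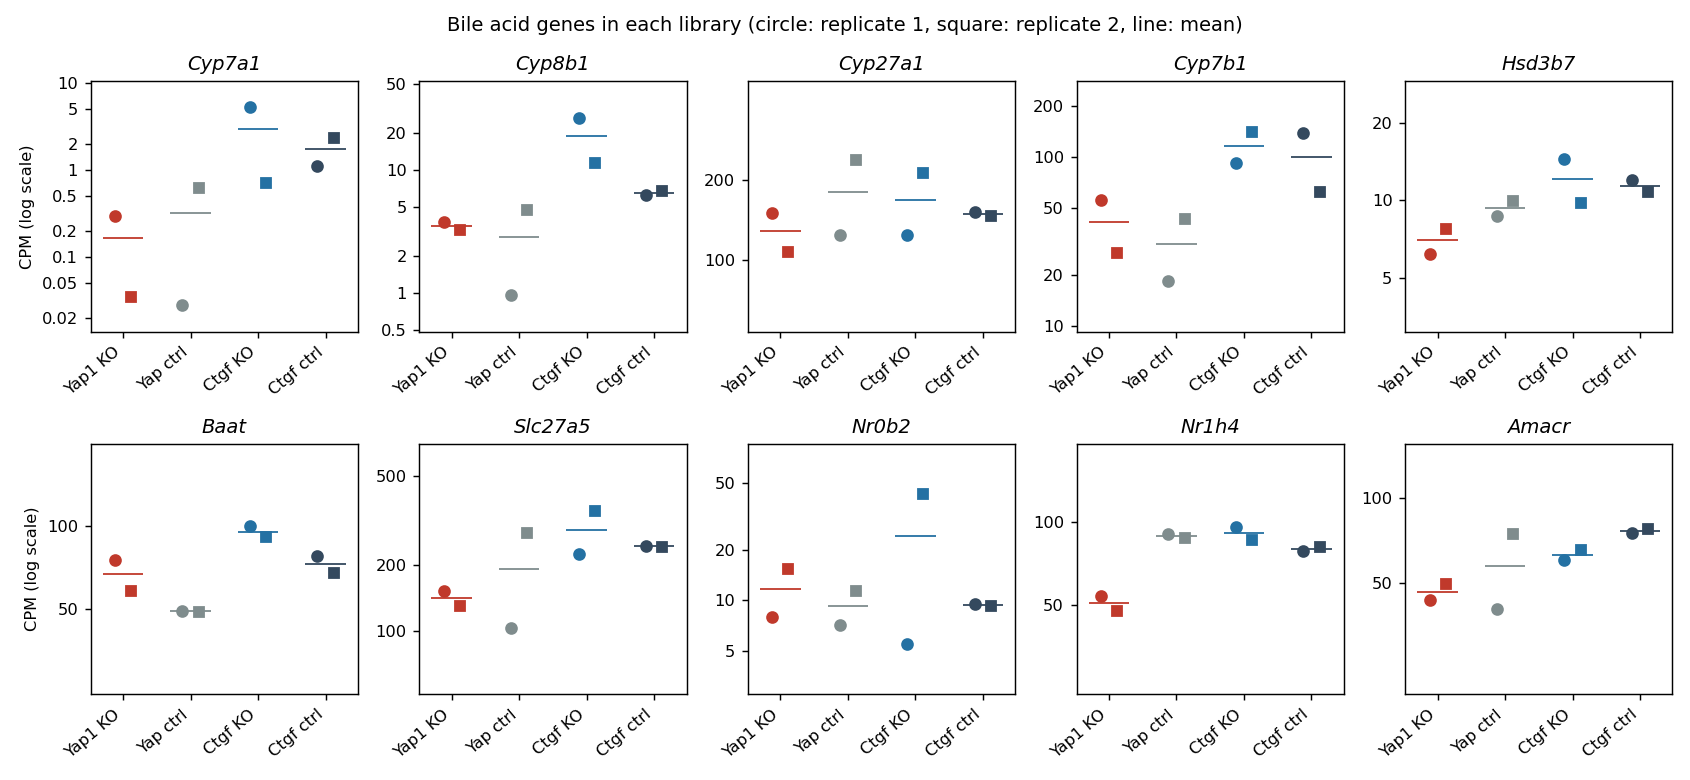
CPM on a log axis for each of the 10 bile acid genes in Yap1 KO, Yap control, Ctgf KO and Ctgf control livers, with circles for replicate 1, squares for replicate 2 and a line at the mean. Nr1h4 sits at 54.1 and 47.7 CPM in Yap1 KO livers, below the other 6 libraries, while Nr0b2 in the library labelled Ctgf KO 2 stands alone at 42.8 CPM.

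The first comparison asked what hepatocyte Yap1 deletion did to these transcripts. The bile acid receptor Nr1h4 was the member with the smallest p. It stood at 54.1 and 47.7 CPM in Yap1 KO livers, against 90.7 and 88.0 CPM in Yap controls. Both KO libraries lay below both controls and also below all 4 libraries of the Ctgf line, which ran from 78.9 to 96.3 CPM. The log2 fold change was -0.81 (SE 0.178), with an adjusted p of 0.153 over all genes (edgeR quasi-likelihood, Benjamini-Hochberg), so it did not pass. By DESeq2 the adjusted p was 0.00295, and by edgeR it was 0.0144 against Yap control 2 alone and 0.0962 against Yap control 1 alone. With Yap1 KO 1 left out the edgeR value was 0.619 (log2 fold change -0.90), and with Yap1 KO 2 left out it was 0.834 (log2 fold change -0.72). The summed level of 7 neutrophil markers was 943 and 455 CPM in Yap1 KO livers, against 128 and 242 CPM in Yap controls, and all 7 lay above both controls in both KO libraries. The 7 erythroid markers summed to 467 and 403 CPM in Yap1 KO livers, against 123 and 229 CPM in Yap controls, with 6 of 7 above both controls in both KO libraries. The part of either list in this result was not tested. In bulk liver, fewer cells of a type and less RNA per cell cannot be told apart.

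No member passed in this comparison by edgeR's test, where 0.0286% of all 13999 genes did. At an unadjusted p under 0.05 there was 1 member, Nr1h4, lower, against 7.14% of all genes lower. DESeq2 called 1 of 10, again Nr1h4, against 1.94% of its genes called lower, and limma-voom called 0. Of the 10 fold changes 4 were above 0 and 6 below, with a median of -0.36, against -0.005 (log2) over all genes tested. In 2 members (Hsd3b7 and Nr1h4) both KO libraries lay below both controls, against 20.8% of all genes, and in 1 (Baat) both lay above, against 23.6%.

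Nr0b2, the FXR target that encodes the repressor SHP, showed no separation of the groups. It stood at 7.93 and 15.4 CPM in Yap1 KO livers and at 7.13 and 11.4 CPM in Yap controls, so the groups overlapped (log2 fold change 0.34 with SE 0.782, adjusted p = 0.846 by edgeR). The value was -0.21 without Yap1 KO 2. Abcb11, the bile salt export pump and another known FXR target, stood at 64.5 and 37.7 CPM in Yap1 KO livers and at 105 and 64.6 CPM in Yap controls (log2 fold change -0.73 with SE 0.388, adjusted p = 0.426 by edgeR). Its groups were separated only by the narrow gap between 64.5 and 64.6 CPM.

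Cyp7a1 was close to the limit of detection throughout the Yap line. It had 9 and 1 reads in Yap1 KO livers (0.296 and 0.0346 CPM) and 1 and 15 reads in Yap controls (0.0277 and 0.617 CPM), where 3 reads, taken as the floor, correspond to 0.083 to 0.123 CPM. Within each group 1 library was under that floor. The log2 fold change was -0.82 (SE 1.53, edgeR adjusted p = 0.811). The pooled 10 KO reads were 6.1 times the rate in Yap control 1 (exact 95% interval 0.868 to 265) and 0.273 times the rate in Yap control 2 (0.11 to 0.65), intervals that cover counting error only.

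For the other hydroxylases, Cyp8b1, Cyp7b1 and Cyp27a1, the Yap controls differed from each other and the groups overlapped. Cyp8b1 stood at 3.79 and 3.22 CPM in Yap1 KO livers, which lie between Yap control 1 at 0.968 CPM and Yap control 2 at 4.73 CPM (log2 fold change 0.32 with SE 0.671, adjusted p = 0.829 by edgeR). Cyp7b1 stood at 55.6 and 27.03 CPM in Yap1 KO livers and at 18.6 and 42.8 CPM in Yap controls (log2 fold change 0.43 with SE 0.541, adjusted p = 0.708 by edgeR). Cyp27a1 stood at 150 and 107 CPM in Yap1 KO livers and at 124 and 238 CPM in Yap controls (log2 fold change -0.49 with SE 0.376, adjusted p = 0.549 by edgeR).

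Among the remaining enzymes, the groups separated for Baat and Hsd3b7. Baat stood at 75.3 and 58.1 CPM in Yap1 KO livers and at 49.0 and 48.7 CPM in Yap controls, both KO libraries above both controls (log2 fold change 0.45, SE 0.199, adjusted p by edgeR 0.371). Hsd3b7 stood at 6.22 and 7.79 CPM in Yap1 KO livers, below 8.71 and 9.96 CPM in Yap controls (log2 fold change -0.41 with SE 0.272, adjusted p = 0.497 by edgeR). Slc27a5 stood at 152 and 130 CPM in Yap1 KO livers and at 104 and 277 CPM in Yap controls, and Amacr at 43.5 and 49.7 CPM in Yap1 KO livers and at 40.3 and 74.9 CPM in Yap controls. The KO libraries of Slc27a5 and Amacr lay between the controls, at log2 fold changes of -0.43 and -0.31 (adjusted p by edgeR 0.641 and 0.613).

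**Figure D2:**
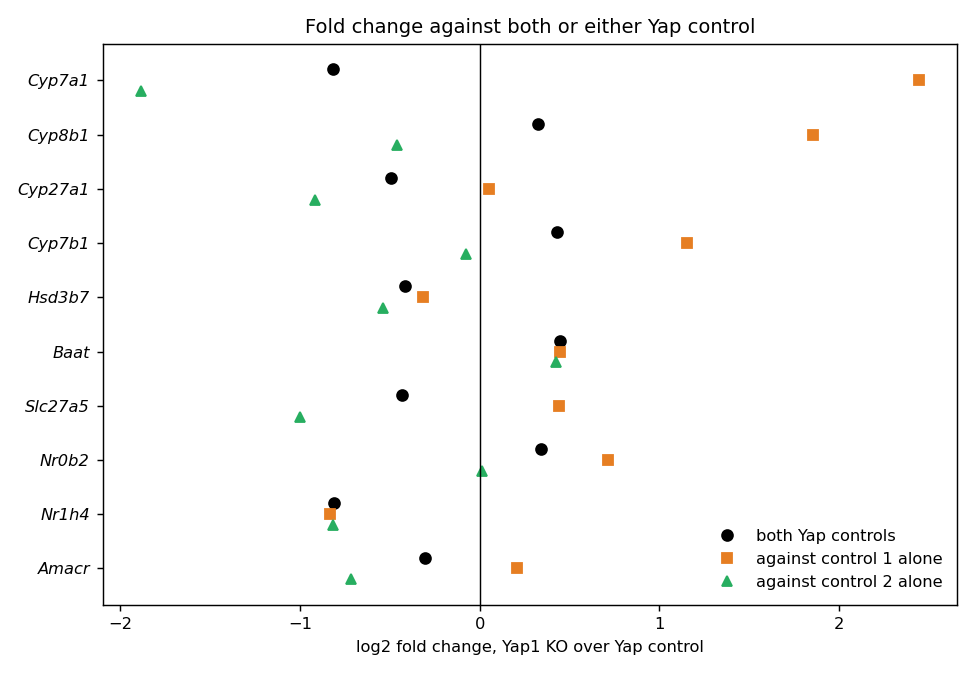
Log2 fold change of Yap1 KO over Yap control for each gene, fitted with both controls (black circles), with Yap control 1 alone (orange squares) and with Yap control 2 alone (green triangles). Nr1h4 is near -0.8 and Baat near 0.4 in all 3 fits, whereas Cyp7a1, Cyp8b1, Cyp27a1, Cyp7b1, Slc27a5 and Amacr lie on opposite sides of 0 depending on the control.

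For 6 of the 10 genes the direction depended on which control was used. Against Yap control 1 alone, 8 of the 10 fold changes were above 0 and their median was 0.44. Against Yap control 2 alone, the library with pancreatic transcripts, the median was -0.63, and Slc27a5, Amacr and Nr1h4 were called lower by edgeR (log2 fold changes -1.003, -0.72 and -0.82, adjusted p = 0.0415, 0.0197 and 0.0144). That fit called 1788 genes higher and 1940 lower among 14457. The Yap controls also differed in the summed level of 10 pericentral genes, the zone that CCl4 injures, with 558 and 609 CPM in Yap1 KO livers against 494 CPM in Yap control 1 and 1415 CPM in Yap control 2. The 10 hepatocyte markers summed to 83680 and 103400 CPM in Yap1 KO livers, against 63400 and 111900 CPM in Yap controls. Whether the pancreatic transcripts or either marker sum had a part in the members' values was not tested. Without both Yap control 2 and the library labelled Ctgf KO 2, a setting chosen after seeing the data, Cyp8b1 was called higher (1.85, edgeR adjusted p = 0.0194) and Nr1h4 lower (-0.83, edgeR adjusted p = 0.0206). Over all genes that fit called 530 higher and 408 lower of 14261, against 3 and 1 of 13999 with all libraries.

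Beyond the 10, no other enzyme of the pathway passed in Yap1 KO livers by edgeR (0 of 12, against 0.0286% of all genes). At an unadjusted p under 0.05, 3 were lower and 0 higher, against 7.14% of all genes lower. DESeq2 called 3 lower, against 1.94% of its genes. The lowest p belonged to Akr1c14, an aldo-keto reductase of steroid metabolism whose close relatives make its count uncertain. It stood at 13.96 and 8.27 CPM in Yap1 KO livers and at 105 and 45.4 CPM in Yap controls (log2 fold change -2.76 with SE 0.469, adjusted p = 0.0959 by edgeR, DESeq2 adjusted p = 2.97e-07). Akr1d1, the reductase that saturates the steroid ring, stood at 2.17 and 2.596 CPM in Yap1 KO livers and at 5.39 and 9.67 CPM in Yap controls (log2 fold change -1.65 with SE 0.361, adjusted p = 0.153 by edgeR). Slc27a2, a very-long-chain acyl-CoA synthetase, stood at 350 and 282 CPM in Yap1 KO livers and at 516 and 904 CPM in Yap controls (edgeR adjusted p = 0.204). In all 3, which were picked by smallest p, both KO libraries lay below both controls. In the list of 12 this held for 5, against 20.8% of all genes, and both lay above in 2, against 23.6%. The list of 12 had a median log2 fold change of -0.40.

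Of 15 further regulators none passed by edgeR. At an unadjusted p under 0.05, 1 was higher and 2 lower, against 1928 of 13999 genes in either direction and 7.14% of all genes lower. DESeq2 called the same numbers, against 274 genes higher and 275 lower of 14204. Ppargc1a, a coactivator of fasting metabolism, stood at 49.0 and 54.7 CPM in Yap1 KO livers, against 26.6 and 25.3 CPM in Yap controls (log2 fold change 1.00 with SE 0.218, adjusted p = 0.153 by edgeR). Nr1i3, the xenobiotic receptor CAR, stood at 37.5 and 43.1 CPM in Yap1 KO livers, against 64.3 and 262 CPM in Yap controls (log2 fold change -2.02 with SE 0.545, adjusted p = 0.209 by edgeR). Nr1h3, the oxysterol receptor LXR alpha that activates Cyp7a1 in rodents, stood at 52.0 and 43.1 CPM in Yap1 KO livers, against 71.7 and 89.6 CPM in Yap controls (log2 fold change -0.76 with SE 0.206, adjusted p = 0.21 by edgeR). The median of the 15 was -0.07.

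Of 14 bile acid and sterol transporters 13 were tested and 0 passed by edgeR. At an unadjusted p under 0.05, 1 was higher and 3 lower, against 1928 of 13999 genes in either direction and 7.14% of all genes lower. DESeq2 called 1 lower, against 1.94% of its genes. The median log2 fold change of the 13 was -0.47, against -0.005 over all genes tested. In 5 both KO libraries lay below both controls, against 20.8% of all genes, and in 2 both lay above, against 23.6%. For the paired subunits of the sterol exporter the log2 fold changes were -1.57 (Abcg5, SE 0.485) and -1.27 (Abcg8, SE 0.53), and neither passed (0.249 and 0.353 after adjustment in edgeR). Abcg5 stood at 15.3 and 15.8 CPM in Yap1 KO livers, against 38.2 and 54.5 CPM in Yap controls. Abcc4, an exporter on the sinusoidal side, stood at 42.8 and 42.5 CPM in Yap1 KO livers, against 27.2 and 34.4 CPM in Yap controls (log2 fold change 0.47 with SE 0.19, adjusted p = 0.345 by edgeR). Fgf15 had reads in 1 of the 8 libraries, at 0.0277 CPM, under the floor.

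**Figure D3:**
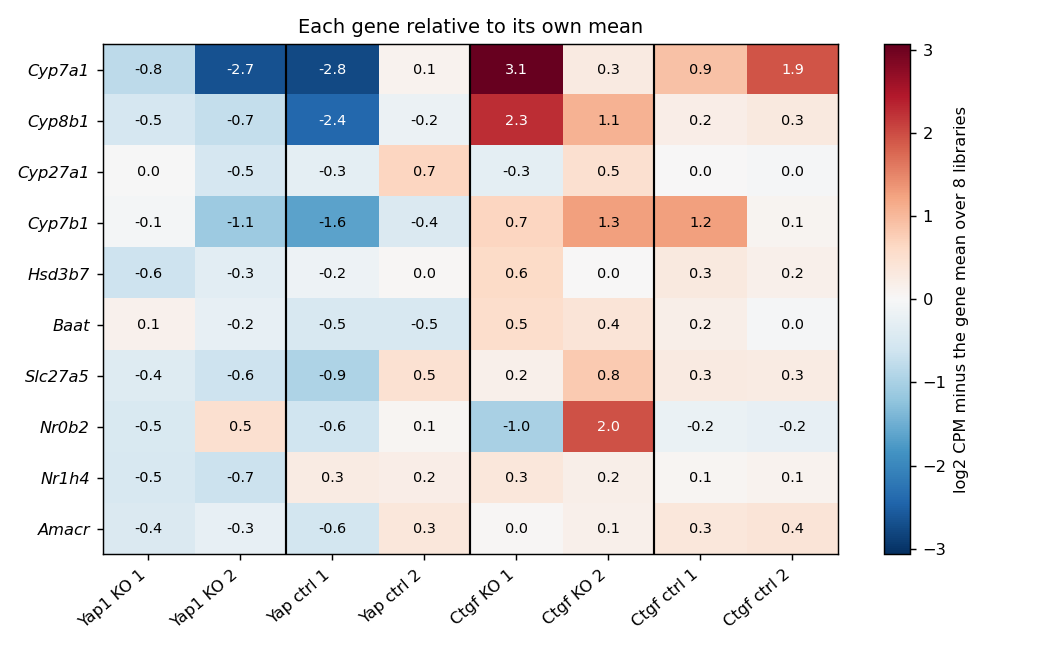
Log2 CPM of each gene minus its own mean over the 8 libraries, with libraries in columns by group. Cyp7a1 and Cyp8b1 are highest in Ctgf KO 1, Nr0b2 is highest in the library labelled Ctgf KO 2 and lowest in Ctgf KO 1, and Nr1h4 is lowest in the Yap1 KO libraries.

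The second comparison asked what Ctgf deletion did. No member passed by edgeR, DESeq2 or limma-voom, with 0% of all genes called by edgeR and 0.0227% by DESeq2. At an unadjusted p under 0.05 there was 1 member, Cyp8b1, higher, against 0.657% of all genes higher. It stood at 26.2 CPM in Ctgf KO 1 and 11.4 CPM in the library labelled Ctgf KO 2, against 6.18 and 6.65 CPM in Ctgf controls. Both lay above both controls (log2 fold change 1.55, SE 0.653, adjusted p by edgeR 1), and the value was 2.03 with Ctgf KO 1 alone and 0.84 with the library labelled Ctgf KO 2 alone. Baat stood at 99.6 and 91.1 CPM in Ctgf KO livers, above 77.8 and 67.6 CPM in Ctgf controls, and Nr1h4 at 96.3 and 86.3 CPM in Ctgf KO livers, above 78.9 and 81.2 CPM in Ctgf controls. Their log2 fold changes were 0.39 (SE 0.199) and 0.19 (SE 0.177), and neither passed (adjusted p by edgeR 1 in both cases). Amacr stood at 60.6 and 65.6 CPM in Ctgf KO livers, below 75.3 and 78.0 CPM in Ctgf controls (log2 fold change -0.28 with SE 0.282, adjusted p = 1 by edgeR).

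The libraries labelled Ctgf KO differed from each other in opposite ways for the repressor gene Nr0b2 and for Cyp7a1. Nr0b2 stood at 5.498 CPM in Ctgf KO 1 and at 42.8 CPM in the library labelled Ctgf KO 2, against 9.53 and 9.21 CPM in Ctgf controls. Cyp7a1 stood at 5.25 CPM (148 reads) in Ctgf KO 1 and at 0.70 CPM (22 reads) in the library labelled Ctgf KO 2, against 1.12 and 2.33 CPM in Ctgf controls. For both genes the controls lay between the labelled knockouts. Over all 8 libraries the Pearson r of log2 CPM with Nr0b2 was -0.183 for Cyp7a1 and 0.125 for Cyp8b1. The log2 fold change of Nr0b2 was 1.37 (SE 0.788) over both libraries and -0.77 with Ctgf KO 1 alone, and that of Cyp7a1 was 0.78 (SE 1.14) over both and -1.28 with the library labelled Ctgf KO 2 alone (edgeR adjusted p = 1 for each). In the library labelled Ctgf KO 2, Cyp8b1 lay above the controls and Cyp7a1 below them. Summed marker levels also differed between these libraries. Macrophage markers stood at 330 and 660 CPM in Ctgf KO livers, against 598 and 888 CPM in Ctgf controls, and neutrophil markers at 68.4 and 137 CPM in Ctgf KO livers, against 161 and 190 CPM in Ctgf controls. Hepatocyte markers stood at 83480 and 111100 CPM in Ctgf KO livers, against 71450 and 64810 CPM in Ctgf controls, and pericentral genes at 1574 and 1792 CPM in Ctgf KO livers, against 1829 and 1874 CPM in Ctgf controls. Their part in the members' values was not tested.

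The remaining enzymes overlapped between the Ctgf groups. Cyp27a1 stood at 124 and 214 CPM in Ctgf KO livers, against 152 and 147 CPM in Ctgf controls, and Slc27a5 at 223 and 351 CPM in Ctgf KO livers, against 242 and 240 CPM in Ctgf controls. For both genes Ctgf KO 1 lay below the controls and the library labelled Ctgf KO 2 above them. Cyp7b1 stood at 92.1 and 140 CPM in Ctgf KO livers, against 139 and 62.1 CPM in Ctgf controls, and Hsd3b7 at 14.5 and 9.79 CPM in Ctgf KO livers, against 12.0 and 10.8 CPM in Ctgf controls. These 4 had log2 fold changes from 0.09 to 0.25, each smaller than its SE. Over all 10 members the median was 0.23, against 0.006 over all genes tested, and 9 were above 0 with both libraries but 5 with Ctgf KO 1 alone. Of the 10 hepatocyte markers 9 were above 0, with a median of 0.29, while 7 of 7 neutrophil and 7 of 8 macrophage markers were below 0. In 3 members both labelled knockouts lay above both controls and in 1 below, where 15.5% and 16.8% of all genes did so.

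Of the further lists no gene passed in Ctgf KO livers, by edgeR or DESeq2. At an unadjusted p under 0.05 there were 1 synthesis enzyme (Cyp2c70, higher), 1 regulator (Ppargc1a, lower) and 0 transporters. Of all 13999 genes 277 lay under it in either direction. Cyp2c70, which makes the muricholic acids of the mouse, stood at 140 and 362 CPM in Ctgf KO livers, against 107 and 94.2 CPM in Ctgf controls (log2 fold change 1.31, SE 0.433, adjusted p by edgeR 1). Ppargc1a stood at 19.4 and 23.9 CPM in Ctgf KO livers, against 34.1 and 44.98 CPM in Ctgf controls (log2 fold change -0.87, SE 0.217, adjusted p by edgeR 1). Akr1d1 stood at 16 and 10.4 CPM in Ctgf KO livers, against 24.6 and 20.7 CPM in Ctgf controls, and the uptake carriers Slco1a1 and Slco1a4 had log2 fold changes of 1.13 (SE 0.694) and -1.01 (SE 0.659), and the adjusted p by edgeR was 1 in these 3 cases. By the same rule of smallest p, Acox2, a peroxisomal oxidase, Hnf4a, a hepatocyte transcription factor, and Abcc4 had log2 fold changes of 0.32, 0.28 and 0.30 (edgeR adjusted p = 1).

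**Figure D4:**
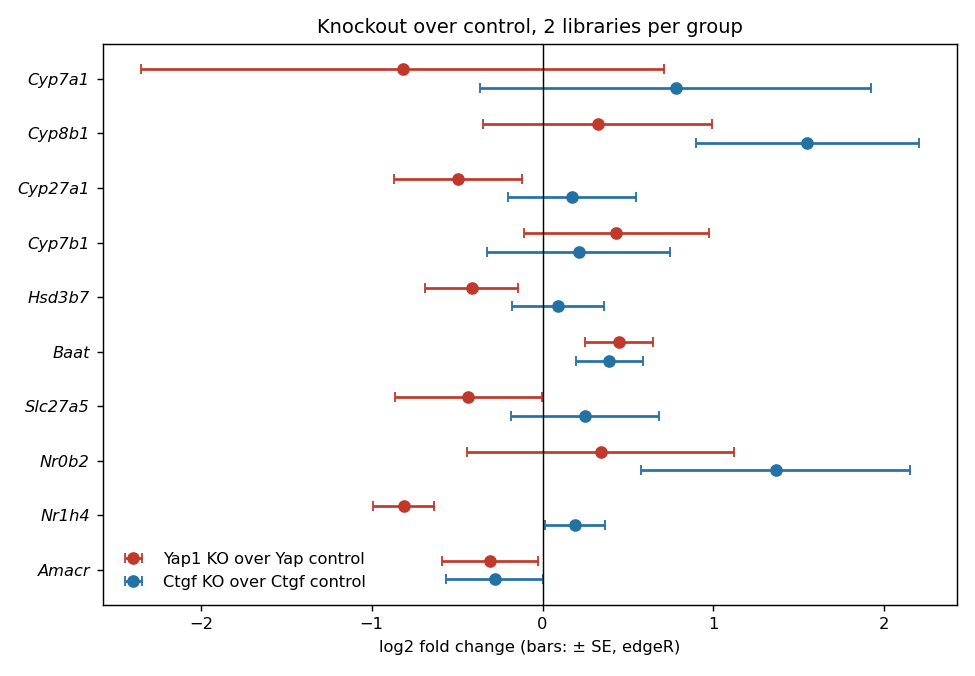
Log2 fold change of each gene in Yap1 KO over Yap control (red) and Ctgf KO over Ctgf control (blue), with bars of 1 SE from edgeR. Nr1h4 is at -0.81 in the Yap1 comparison and at 0.19 in the Ctgf comparison, and the bars of Cyp7a1 are the widest.

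The difference between the knockout effects was tested directly, and no member passed by edgeR (0% of all genes called, 1 member against 4.19% of all genes lower at an unadjusted p under 0.05). That member was Nr1h4, whose Yap1 effect minus Ctgf effect was -1.003 (SE 0.25, adjusted p 0.442 by edgeR and 0.0374 by DESeq2, which called 0.548% of its genes lower). Over 18 alternatives the difference ran from -1.10 to -0.91 and its adjusted p from 0.0276, without Yap control 1, to 0.969. The fit without Yap control 1 called 1133 genes higher and 959 lower of 14457, against 0 of 13999 with all libraries. For the other 9 members the edgeR adjusted p was 0.674 or more. The difference in Cyp8b1 was -1.23 (SE 0.931), and that in Nr0b2 -1.03 (SE 1.1). Single libraries turned both, since the difference was 0.30 for Cyp8b1 without Yap control 2, and for Nr0b2 1.11 without the library labelled Ctgf KO 2 and -1.89 without Ctgf KO 1.

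The control groups of the lines were also set against each other, where allele, virus and handling cannot be told apart. Summed stellate cell markers stood at 942 and 585 CPM in Yap controls, against 239 and 251 CPM in Ctgf controls, and their part in these values was not tested. No member passed by edgeR, where 2.38% of all genes did, and 2 were lower at an unadjusted p under 0.05, against 10.4% of all genes lower. DESeq2 called 1, Cyp7b1, lower, against 5.36% of its genes. It stood at 18.6 and 42.8 CPM in Yap controls, against 139 and 62.1 CPM in Ctgf controls (log2 fold change -1.71, SE 0.553, adjusted p = 0.132 by edgeR and 0.0162 by DESeq2). Baat stood at 49.0 and 48.7 CPM in Yap controls, against 77.8 and 67.6 CPM in Ctgf controls (log2 fold change -0.57 with SE 0.199, adjusted p = 0.15 by edgeR). Cyp7a1 and Cyp8b1, whose values are given above, had log2 fold changes of -2.52 (SE 1.32) and -1.20 (SE 0.668) and did not pass (0.295 and 0.323 after adjustment in edgeR). Cyp7a1 was at -5.78 without Yap control 2, a fitted value that rests on the 1 read of Yap control 1, and at -1.46 without Yap control 1. In 6 members both Yap controls lay below both Ctgf controls, against 27% of all genes, and in 1 (Nr1h4) above, against 26.1%. Without Yap control 2 edgeR called Cyp8b1 (-2.73, adjusted p 0.045) and Amacr (-0.93, adjusted p 0.0283) lower, in a fit that called 557 genes higher and 455 lower of 14309. Without Yap control 1 Cyp8b1 was at -0.42 (adjusted p 0.543) and Amacr at -0.01 (adjusted p 0.964).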

How the data were processed

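RNA was measured in 8 mouse liver libraries. The authors deposited whole-number read counts per gene symbol, and the submitters' processing notes name HTSeq 0.6.1, bcl2fastq 2.20.0.422 and STAR 2.6.0a, and the builds mm10 and GRCm38. Not given in the sources used here: annotation and strand setting, so reads of overlapping genes may not have been told apart. The labels' protocols name both an Illumina TruSeq and a KAPA mRNA HyperPrep kit, without saying which library had which.

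Counts were tested with edgeR 4.0.16 (quasi-likelihood F test, TMM scaling, filterByExpr with its minimum count of 10) in R 4.3.3. A single fit of the 4 groups over all 8 libraries left 4 residual degrees of freedom, and p-values were adjusted by Benjamini-Hochberg over 13999 genes, with 0.05 as the threshold. The fit was also run on simulated counts in which 200 genes were changed. That simulation held no outlying library, so it does not bear on the uneven replicates here. Levels are CPM of the TMM-scaled library, and CPM per kb uses GENCODE M21 exon lengths, which may not be the authors' annotation. SE is the log2 fold change over the square root of F. Alternatives were DESeq2 1.42.0, limma-voom (limma 3.58.1), other scalings and filters, other sets of libraries and a replicate block. Replicates differed by far more than sampling noise. The labels name no molecular identifiers, so exact intervals and the floor of 3 reads cover counting error only.

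The members and lists were chosen with earlier results of these data known. Named were all members, per further list and knockout comparison the 3 genes with the smallest p, and the 3 genes most like Cyp7a1, Cyp8b1, Cyp7b1 and Nr0b2. Some genes this rule selects are not reported here. Abcb11 and Fgf15 were named outside this rule, after their values were seen. The number of columns of the table not used was 0.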

Additional observations from a re-analysis of the deposited data

How the results depend on the processing

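In the Yap1 comparison and in the Ctgf comparison the 10 alternatives other than leaving out libraries kept the direction of every member they tested (Cyp7a1 was not tested in the fit of the Yap libraries alone). Among them, for Yap1, DESeq2 alone called a member (1, Nr1h4, -0.82). In the difference between the effects and between the control groups DESeq2 also called 1 each. With each library left out in turn, the number of members called ran from 0 to 3 in the Yap1 comparison, from 0 to 1 in the difference and from 0 to 2 between the control groups, and was 0 throughout for Ctgf. A group left with 1 library was assumed to vary like the others. The median then ran from -0.63 to 0.44 for Yap1 and from 0.076 to 0.42 for Ctgf. The members that changed sign in the Yap1 comparison ran from -2.98 to 2.44 (Cyp7a1), -0.46 to 1.85 (Cyp8b1), -0.92 to 0.053 (Cyp27a1), -0.17 to 1.16 (Cyp7b1), -1.003 to 0.44 (Slc27a5), -0.21 to 0.75 (Nr0b2) and -0.72 to 0.21 (Amacr). In the Ctgf comparison they ran from -1.28 to 1.60 (Cyp7a1), -0.27 to 0.53 (Cyp27a1), -0.24 to 0.91 (Cyp7b1), -0.20 to 0.34 (Hsd3b7), -0.12 to 0.55 (Slc27a5) and -0.77 to 2.21 (Nr0b2). Without both Yap control 2 and the library labelled Ctgf KO 2, chosen after seeing the data, 2 members were called for Yap1, 0 for Ctgf and 5 between the control groups. Of all 14261 genes that fit called 530 higher and 408 lower for Yap1, 0 for Ctgf, and 1973 higher and 2083 lower between the control groups. The medians were 0.44 and 0.076. Cyp7a1, Cyp27a1, Slc27a5 and Amacr changed sign for Yap1 (2.44, 0.052, 0.44 and 0.21), and Cyp27a1, Cyp7b1, Slc27a5 and Nr0b2 for Ctgf (-0.27, -0.12, -0.12 and -0.77). The cause was not tested, beyond that these fits hold fewer libraries.

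Replicate numbers are shared by the groups, and the deviations of same-numbered libraries correlated at 0.0716 in the Yap line and 0.0678 in the Ctgf line. This check shows no pairing but cannot exclude it, since each group gives only a single difference between replicates. The number that the title of Yap control 2 gives for its knockout stands in the description of Yap1 KO 2, but the number in the title of Yap control 1 stands in its own description. With the replicate block 0 members were called in any comparison and the medians were -0.29 for Yap1 and 0.22 for Ctgf. Over all genes in the Yap1 comparison, DESeq2 called 274 higher and 275 lower, edgeR without a low-count filter 24 and 13, and edgeR against Yap control 2 alone 1788 and 1940, against 3 and 1. A fit of the Yap libraries alone called 0. Between the control groups DESeq2 called 845 and 762, against 178 and 155, and in the difference 90 and 76, against 0 and 0. A fit of the 4 libraries of the comparison was not possible for the difference, which needs all 8. Cyp7a1, at 1 to 15 reads in the Yap line, is limited by low counts and also by unlike replicates. Its exact 95% intervals were 7e-04 to 0.154 CPM in Yap control 1 and 0.346 to 1.02 CPM in Yap control 2, beyond counting error.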

Other observations

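For some members the genes with the highest correlation over the same 8 libraries were picked out of all genes compared. High values of r are therefore selected for. Among 10310 genes with a mean of at least 5 CPM, those most like Cyp7a1 were Pomgnt1, Pbdc1 and Taf1c, with a Pearson r of log2 CPM of 0.971, 0.969 and 0.968. Pomgnt1, which encodes a glycosyltransferase of the Golgi, stood at 67.0 and 55.8 CPM in Yap1 KO livers and 53.6 and 74.8 CPM in Yap controls, and at 109 and 81.2 CPM in Ctgf KO livers and 101 and 96.2 CPM in Ctgf controls. Cyp8b1 was most like Gtf3c5 (r = 0.984), Extl1 (0.935) and Uckl1 (0.934), and Nr0b2 most like Plcg1 (0.982), Emd (0.981) and Usb1 (0.93). By rank (Spearman) the values were 0.976, 0.952 and 0.976 for the genes most like Cyp7a1. They were 0.929, 0.762 and 0.857 for those most like Cyp8b1, and 0.929, 0.881 and 0.738 for those most like Nr0b2. Emd, which encodes the nuclear envelope protein emerin, stood at 32.7 CPM in the library labelled Ctgf KO 2 and between 25.3 and 28.8 CPM in the other libraries. Nr0b2 was also highest in that library, at 42.8 CPM, and how far its correlations rest on it was not tested.

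Among the genes most like Cyp7b1 were Slc3a1 (r = 0.963), a subunit of an amino acid transporter, and the acute phase gene Saa2 (0.947). Their Spearman values were 1 and 0.952. Saa2 stood at 1683 and 609 CPM in Yap1 KO livers and 304 and 2100 CPM in Yap controls, and at 6039 and 6578 CPM in Ctgf KO livers and 5947 and 4631 CPM in Ctgf controls. These are descriptions over 8 libraries that fall into separate lines, and the points share that split. No p is given.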
